A study of Mus musculus with 4 samples.

Results

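Sox genes encode transcription factors that carry an HMG box, a DNA-binding domain first described in SRY. The 10 genes described here, Sox2, Sox4, Sox5, Sox6, Sox7, Sox9, Sox11, Sox13, Sox18 and Sox21, were taken by name, and every probe set that the platform annotation gives to one of them was used. They had 27 probe sets among 45037 without controls, and 6 of the 10 genes had more than 1. RNA came from mouse colon adenoma organoids, 3D cultures of tumour epithelium on a C57BL/6 background, and was measured on 4 Affymetrix arrays. Of these, 2 arrays were labelled Gata6 null/Apc null and 2 were labelled Apc null, and each pair held 1 array of batch A and 1 of batch B. Both groups carried floxed Apc with a tamoxifen-inducible Cre recombinase under the Villin promoter, which is active in intestinal epithelium. The first group also had both Gata6 alleles floxed (VillinCreERT2Gata6fl/flApcfl/fl), and the second had wild-type Gata6 (VillinCreERT2Gata6+/+Apcfl/fl). All organoids were cultured for 7 days, in a medium that held N-2, B-27 and 50 ng/ml of EGF, with a Rock inhibitor when passaged. The series calls the arrays of a group biological replicates, without saying how many mice or organoid lines stand behind each.

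SOX proteins bind the minor groove of DNA, bend it, and act with partner factors that set which genes they control. They fall into groups by their HMG box. In the intestine SOX9 lies downstream of Wnt signalling in crypt cells and is needed for Paneth cells, and SOX4 is known from intestinal progenitors and from the secretory lineage. SOX2 belongs to the oesophagus and stomach, anterior to the territory of CDX2. The study's title names GATA6 as a factor of adenoma stem cells that represses BMP genes, and the comparison here asks which Sox genes differ with the Gata6 label.

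Values are log2 expression after RMA, the authors' background correction, quantile normalization and probe summary. A level can be compared between arrays for 1 probe set but not between probe sets, which differ in how well they hybridise. A filter level of 4.45, the 40th percentile of the probe set means, marks dim probe sets. Each gene was represented by its brightest probe set, and 11874 genes at or above the filter level were tested with limma. All differences are Gata6 null/Apc null minus Apc null. The batch letter pairs 1 array of each group, and a second limma fit with the batch as a block is named wherever it is used.

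The array medians lay between 4.91 and 5.04, and the arrays correlated at 0.963 to 0.979 across probe sets. Gata6 itself was not lower where the label calls it null. Of its probe sets the brighter one had 9.37 and 9.40 under the Gata6 null/Apc null label (batch A, then batch B), against 8.89 and 8.61 under the Apc null label (difference 0.64, SE 0.19, limma adjusted p = 0.418, or 0.0392 in the blocked fit). Whether these probes lie inside the deleted part of Gata6 is not known here, so every direction below rests on the label "Gata6 null/Apc null". The brightest Apc probe set, for the gene floxed in both groups, read between 8.14 and 8.35 on the 4 arrays. Markers of epithelium reached the filter level in 8 of 8, with list means of 9.80 to 10.24 on the 4 arrays. Epcam, an epithelial adhesion molecule, read 11.29 to 11.53, while Krt20, a keratin, was nearer the filter level at 4.79 to 5.96. Of the markers of other cells, 5 of 12 endothelial, 6 of 10 neural and glial, 1 of 8 fibroblast, 3 of 6 immune, 1 of 7 tuft cell and 6 of 12 enteroendocrine genes on the array reached the filter level. The list means on the 4 arrays were 4.28 to 4.45 for endothelial, 4.59 to 4.78 for neural and glial, 3.87 to 3.95 for fibroblast, 4.19 to 4.57 for immune, 4.38 to 4.92 for tuft cell and 4.31 to 4.58 for enteroendocrine markers. The part of such cells in the Sox values was not tested. In bulk RNA, fewer cells of a type and less RNA per cell cannot be told apart.

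By their brightest probe sets, the Sox genes fell into those well above the filter level, those near it and those below it. Sox4, Sox5, Sox9, Sox11, Sox13 and Sox21 had a brightest probe set above it on all 4 arrays. Sox18 and Sox6 lay close to it, and Sox2 and Sox7 stayed below it on every array and were not tested at the gene level. Of the 27 probe sets 13 passed the filter, and these included 5 of 5 for Sox4, but 1 of 6 for Sox11 and 1 of 4 for Sox5. The passing ones of Sox11 and Sox5 are shared-sequence probe sets, whose names mark sequence shared between transcripts. None of the 8 Sox genes tested passed a limma adjusted p of 0.05, in a comparison where 0.648% of all genes did. At an unadjusted p under 0.05 there were 2 of 8, Sox21 and Sox11, against 7.97% of all genes. With the batch as a block 1 of 8 passed, Sox21, against 6.88% of all genes. Of the 27 probe sets none passed in the fit over all probe sets (background 0.129%), 6 had an unadjusted p under 0.05 (background 4.84%), and 4 passed with the block (background 3.24%). Of those 6, 5 were Sox11 probe sets, which read the same RNA, and 1 was that of Sox21. The 4 past the threshold with the block were the Sox21 probe set and 3 of Sox11.

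**Figure D1:**
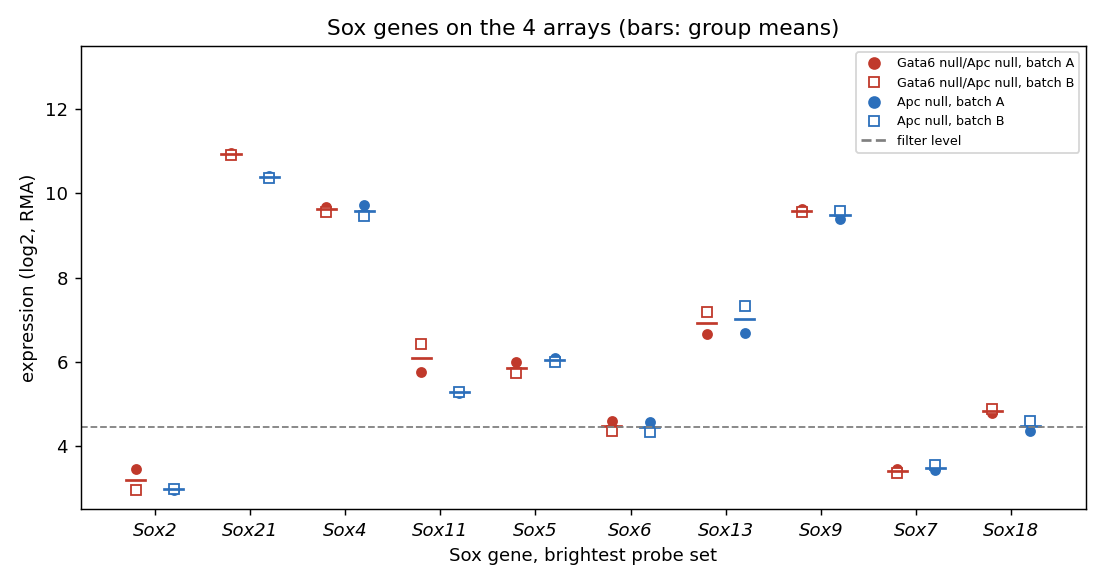
Log2 expression of the 10 Sox genes at their brightest probe set on each array, with the arrays labelled Gata6 null/Apc null at the left of each pair and Apc null at the right. Filled circles are batch A, open squares batch B, bars group means, and the dashed line the filter level of 4.45. The groups do not overlap for Sox11, Sox18 and Sox21, higher under the Gata6 null/Apc null label, or for Sox5, lower. Those of Sox4, Sox6, Sox9 and Sox13 overlap, and Sox2 and Sox7 lie under the line. Over all probe sets, 12.5% did not overlap in the higher direction and 16.1% in the lower. No such share was counted over genes.

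Sox21 had the smallest standard error of the 8 Sox genes tested. SOX21 is a group B factor that acts mainly as a repressor and is best known from neural progenitors and hair follicles. Its single probe set read 10.95 and 10.92 in arrays labelled Gata6 null/Apc null (batch A, then batch B), and 10.42 and 10.36 in the Apc null arrays. Both values of the first group lay above both of the second, as in 12.5% of all probe sets. The difference was 0.55 (SE 0.10, 95% interval 0.28 to 0.82), a 1.46-fold higher level. Batch A gave 0.54 and batch B gave 0.56. The limma adjusted p was 0.168, and with the batch as a block it was 0.0103, so Sox21 was higher by the blocked fit alone. The probe set lay well above the filter level on every array.

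Sox2, the other group B gene of the set and a factor of pluripotent cells and foregut, stayed dark. Its probe set read 3.45 and 2.95 in arrays labelled Gata6 null/Apc null and 2.96 and 2.98 in the Apc null arrays. The batch A array labelled Gata6 null/Apc null was the highest, and it too lay below the filter level. The difference over all probe sets was 0.23 (SE 0.17, 95% interval -0.20 to 0.65, limma adjusted p = 1.00). Sox2ot, the long noncoding gene that overlaps Sox2, read 3.53 to 3.72 on the 4 arrays.

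Sox11 gave the highest differences of the 10 genes. SOX11 belongs to group C with SOX4 and SOX12 and acts as an activator in embryonic neurons and mesenchyme. Its brightest probe set read 5.77 and 6.42 in arrays labelled Gata6 null/Apc null (batch A, then batch B), against 5.27 and 5.29 in the Apc null arrays. The Apc null arrays nearly coincided, and both arrays labelled Gata6 null/Apc null lay above them. The difference of 0.82 (SE 0.28, 95% interval 0.09 to 1.55), a 1.77-fold higher level, did not pass in limma (adjusted p = 0.533) or in the blocked fit (adjusted p = 0.0940).

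The other 5 Sox11 probe sets were dim, with means below the filter level, and pointed the same way. In all 6 the groups did not overlap, with higher values in arrays labelled Gata6 null/Apc null. Non-overlap in that direction was met by 12.5% of all probe sets, and the Sox11 probe sets read the same RNA and are not independent. The widest difference was at the second brightest, which read 4.27 and 5.03 in arrays labelled Gata6 null/Apc null against 3.34 and 3.43 in the Apc null arrays (difference 1.27, SE 0.27). That probe set crossed the filter level on 1 array only, the batch B array labelled Gata6 null/Apc null. Its limma adjusted p over all probe sets was 0.381, and 0.00900 with the batch as a block.

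Also past the threshold with the block were the fourth brightest, higher by 0.99 (SE 0.28, adjusted p = 0.647, blocked 0.0290), and the fifth, higher by 0.85 (SE 0.20, adjusted p = 0.470, blocked 0.0206). Over the 6 probe sets the differences ran from 0.50 to 1.27. The batch B difference was the larger in 6 of 6, at 0.76 to 1.60, against 0.18 to 0.93 in batch A. At the 5 dim probe sets the Apc null arrays read 3.11 to 3.68.

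Sox4 was bright at all 5 of its probe sets, and at the brightest it did not differ beyond the spread between arrays. Its brightest probe set read 9.69 and 9.57 in arrays labelled Gata6 null/Apc null (batch A, then batch B), and 9.71 and 9.47 in the Apc null arrays. The groups overlapped, and the difference was 0.03 (SE 0.17, 95% interval -0.40 to 0.47, limma adjusted p = 1.00). The other probe sets gave 0.17 to 0.44. In batch A the 5 differences ran from -0.24 to 0.08 and in batch B from 0.09 to 0.80, with the batch B difference larger at each of the 5. At the second brightest, where the groups did not overlap, the arrays labelled Gata6 null/Apc null read 9.22 and 9.40 and the Apc null arrays 9.14 and 8.60 (difference 0.44, SE 0.25, limma adjusted p = 1.00, and adjusted p = 0.329 with the block). The low value there was that of the Apc null array of batch B. Higher values without overlap were met in 12.5% of all probe sets.

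Sox12, the remaining group C gene and outside the 10, differed more than any of them. It belongs to a list of 10 other Sox genes on the array, which had 16 probe sets, and was taken up here, with its promoter, after its values were seen. The brightest Sox12 probe set read 6.55 and 7.23 in arrays labelled Gata6 null/Apc null against 5.23 and 5.44 in the Apc null arrays. Its difference was 1.56 (SE 0.31, 95% interval 0.76 to 2.36), a 2.95-fold higher level, with 1.33 from batch A and 1.79 from batch B. The limma adjusted p was 0.193, and 0.0104 with the batch as a block. The next probe set gave 1.06 (adjusted p = 0.663 over all probe sets, and 0.0442 with the block), while the third, which stayed under the filter level, gave 0.08.

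**Figure D2:**
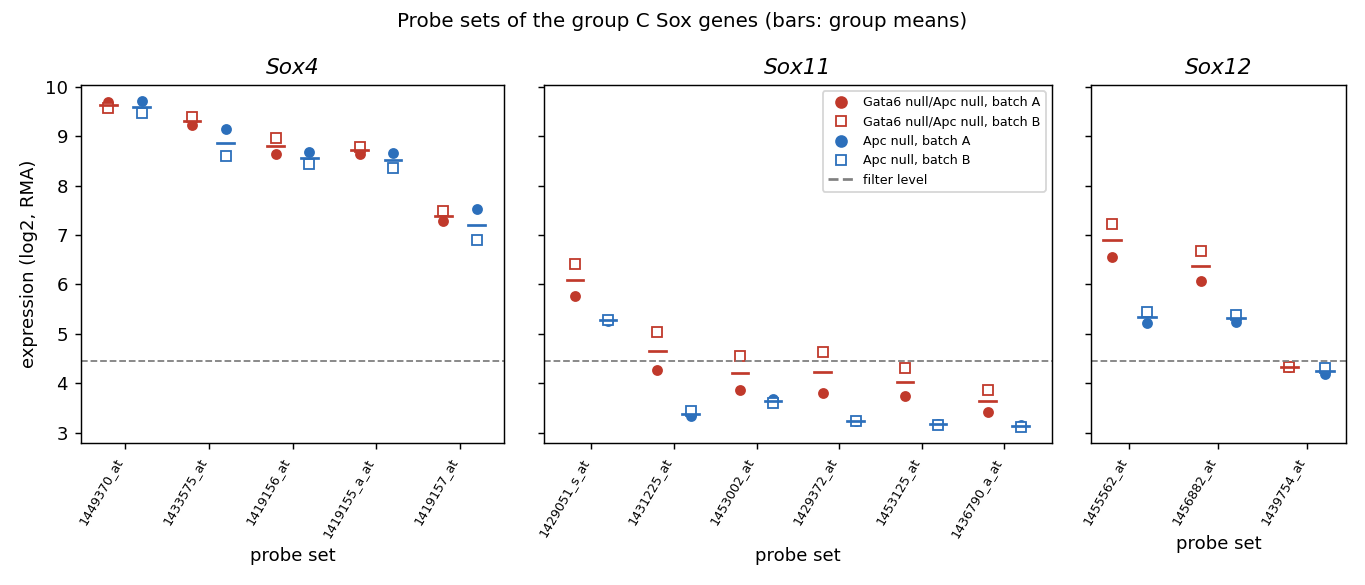
Log2 expression at each probe set of Sox4, Sox11 and Sox12, ordered by mean, with the arrays labelled Gata6 null/Apc null at the left of each pair and Apc null at the right. Symbols are as in the plot of the 10 genes. All 6 Sox11 probe sets and all 3 of Sox12 lie higher in the first group, by 0.50 to 1.27 and by 0.08 to 1.56, while 1 of 5 for Sox4 does so without overlap. Over all probe sets 12.5% were higher without overlap.

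The promoters of Sox21, Sox11 and Sox12, which had probe sets past the threshold in the blocked fit, and of Sox4, the group C gene that had none, are shown so that their base composition and motifs can be read beside these values. Each window holds the 250 bases before the RefSeq start on GRCm38.p6, 5′ to 3′ on the gene's strand. Sox11 lay at chr12:27342719-27342968, Sox12 at chr2:152398047-152398296, Sox21 at chr14:118237031-118237280 and Sox4 at chr13:28953700-28953949, all on the minus strand. Capitals mark matches on either strand to a GATA motif (AGATAA or its form ending in G, AGATAG, and the same with a leading T, TGATAA and, ending in G, TGATAG), a TCF/LEF motif (CTTTGAT or, ending in A, CTTTGAA) or a SOX motif (AACAAT).
Sox11: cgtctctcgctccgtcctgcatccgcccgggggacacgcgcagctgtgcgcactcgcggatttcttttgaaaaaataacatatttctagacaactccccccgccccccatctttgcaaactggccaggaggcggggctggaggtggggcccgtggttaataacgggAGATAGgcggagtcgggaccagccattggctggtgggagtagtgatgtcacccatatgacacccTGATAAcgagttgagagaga
Sox12: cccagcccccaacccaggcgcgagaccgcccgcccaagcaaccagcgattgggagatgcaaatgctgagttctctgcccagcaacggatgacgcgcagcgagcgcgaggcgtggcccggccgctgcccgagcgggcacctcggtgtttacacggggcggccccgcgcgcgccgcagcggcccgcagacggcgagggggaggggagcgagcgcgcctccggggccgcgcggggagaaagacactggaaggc
Sox21: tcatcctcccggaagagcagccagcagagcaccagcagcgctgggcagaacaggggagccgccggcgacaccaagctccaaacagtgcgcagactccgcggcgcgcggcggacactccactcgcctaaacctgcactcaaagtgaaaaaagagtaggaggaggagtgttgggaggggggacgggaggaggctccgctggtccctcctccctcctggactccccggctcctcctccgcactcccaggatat
Sox4: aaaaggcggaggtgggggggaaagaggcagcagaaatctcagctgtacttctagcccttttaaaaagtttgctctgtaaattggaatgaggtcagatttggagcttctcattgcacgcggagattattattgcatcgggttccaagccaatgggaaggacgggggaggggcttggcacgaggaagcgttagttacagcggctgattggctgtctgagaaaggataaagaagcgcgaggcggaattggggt
Only the Sox11 window of these 4 held a match, with TGATAA at bases 20 to 15 and AGATAG at bases 84 to 79 before the start. A GATA match of these forms stood in 26.54% of the 32851 windows in the RefSeq table, a TCF/LEF match in 7.48% and a SOX match in 9.42%. The windows of Sox21, Sox12 and Sox4 held none of these letters. GC content was 58.0% for Sox11, 74.4% for Sox12, 65.2% for Sox21 and 50.8% for Sox4, beside a median of 52.4% over all windows. RefSeq windows were matched for 7 of the 10 genes, with 12 windows in all, 6 of them for Sox6. Matches elsewhere in that set were in Sox6 windows only.

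Sox9, the group E factor of crypt cells and Paneth cells, was bright. At its brightest probe set it did not differ beyond the spread between arrays. Its brightest probe set read 9.62 and 9.56 in arrays labelled Gata6 null/Apc null (batch A, then batch B), and 9.40 and 9.58 in the Apc null arrays. The groups overlapped, and the difference was 0.10 (SE 0.16, limma adjusted p = 1.00). Its 95% interval of -0.31 to 0.52 included the smallest of the Sox11 differences, 0.50, at a dim probe set. The interval did not include 0.82, the difference at the brightest Sox11 probe set, whose own 95% interval was 0.09 to 1.55. Sox9 and Sox11 were not tested against each other. The second Sox9 probe set read 7.80 and 7.81 against 7.62 and 7.60, a difference of 0.19 (SE 0.22, adjusted p = 1.00) without overlap. The third was dim, at 3.98 to 4.11, and higher by 0.10, also without overlap. Non-overlap in that direction was met by 12.5% of all probe sets. Sox8 and Sox10, the other group E genes, differed by -0.15 and -0.12 at their brightest probe sets, and Sox8 was below the filter level.

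The group D genes, whose proteins lack an activation domain of their own and often work with SOX9 in cartilage, showed no call in either fit. Sox5 read 6.00 and 5.73 in arrays labelled Gata6 null/Apc null and 6.09 and 6.00 in the Apc null arrays. This was the lowest difference among the Sox genes tested, at -0.18 (SE 0.22, limma adjusted p = 1.00), and the groups met at 6.00 without overlap. Lower values without overlap were met in 16.1% of all probe sets. Its other 3 probe sets lay below the filter level, at 3.43 to 3.72.

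Sox6, at 4.61 and 4.36 in arrays labelled Gata6 null/Apc null against 4.57 and 4.34 in the Apc null arrays, differed by 0.03 (SE 0.16, adjusted p = 1.00). Both batch A arrays were above both batch B arrays. Sox13, an islet cell autoantigen known from gamma delta T cells, was also split by batch, and its groups overlapped. It read 6.66 and 7.18 in arrays labelled Gata6 null/Apc null (batch A, then batch B), against 6.69 and 7.33 in the Apc null arrays. Batch B lay above batch A by 0.52 and by 0.64, and the genotype difference was -0.09 (SE 0.35, limma adjusted p = 1.00).

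The group F genes are regulators of endothelium, and their brightest probe sets were near the filter level (Sox18) or under it (Sox7). Sox18, a factor of lymphatic and blood vessels, read 4.78 and 4.88 in arrays labelled Gata6 null/Apc null against 4.36 and 4.59 in the Apc null arrays. The groups did not overlap, as in 12.5% of all probe sets in that direction. The difference of 0.35 (SE 0.15, 95% interval -0.04 to 0.75) did not pass (limma adjusted p = 0.717, and 0.249 with the block). Both Sox7 probe sets read 3.32 to 3.55 on the 4 arrays and differed by -0.10 and -0.09. Sox17, of the same group, read 3.78 to 4.01 at its brightest probe set. Among endothelial markers, Pecam1 differed by 0.15 and Eng by -0.15, and none of the 5 tested passed in either fit.

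Of the 27 Sox probe sets, 13 were higher in both batches, 4 were lower in both and 10 had opposite signs. The 13 included the 6 of Sox11, which read the same RNA. Such signs were not counted over all probe sets, so these counts have no background to be read against. The groups did not overlap in 11 of the 27 with higher values in arrays labelled Gata6 null/Apc null, against 12.5% of all probe sets. Of those 11, 6 belonged to Sox11, 2 to Sox9 and 1 each to Sox4, Sox18 and Sox21. In 2, both of Sox5, all values were lower, against 16.1% of all probe sets. The median difference of the 8 Sox genes tested was 0.07, beside -0.03 over all genes tested.

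**Figure D3:**
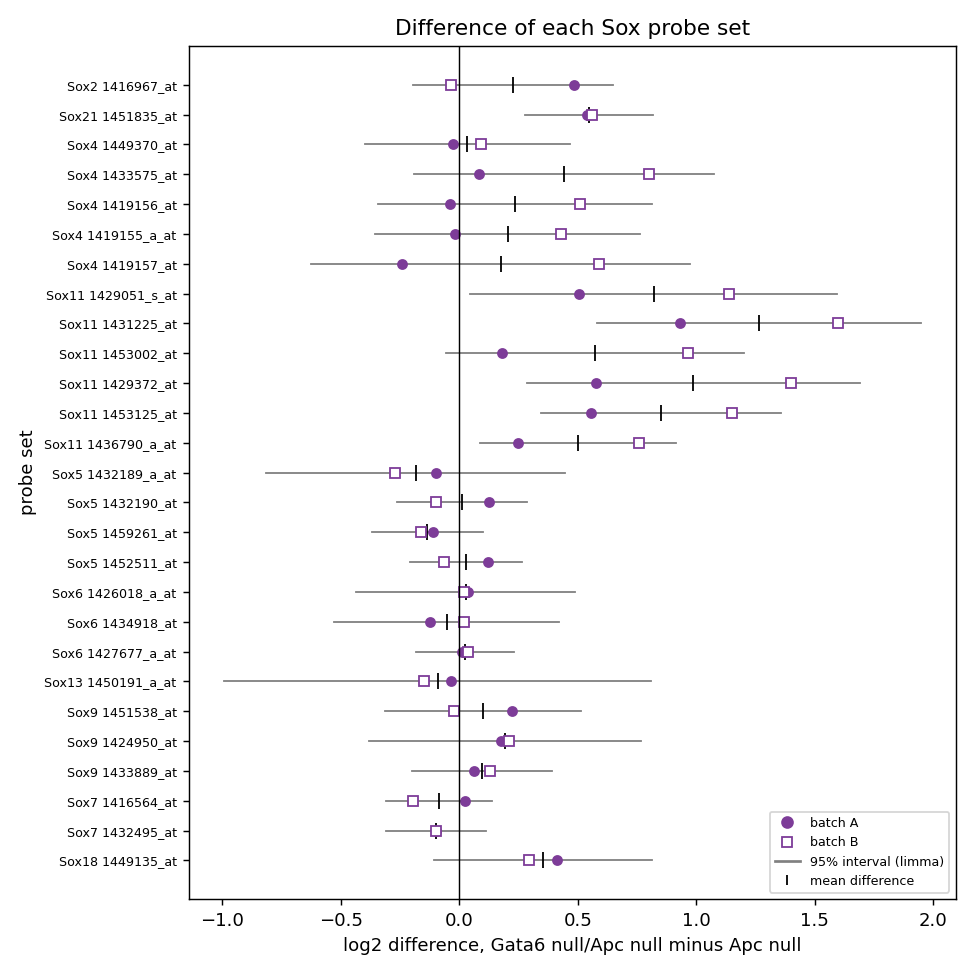
Log2 difference, Gata6 null/Apc null minus Apc null, of each of the 27 Sox probe sets, by gene and then by mean level. Filled circles are batch A, open squares batch B, ticks the mean difference and lines its 95% interval from the limma fit over all probe sets. The 6 Sox11 probe sets run from 0.50 to 1.27 with batch B to the right of batch A, Sox21 has nearly equal batches, and 21 of the 27 intervals include 0, all but those of 5 Sox11 probe sets and Sox21.

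The other 10 Sox genes on the array were mostly dim. Sox10, Sox12, Sox14 and Sry reached the filter level, and Sox1, Sox3, Sox8, Sox15, Sox17 and Sox30 did not. None of the 4 tested passed in limma, against 0.648% of all genes. At an unadjusted p under 0.05 there was 1, against 7.97% of all genes. With the block 1, Sox12, was higher, against 3.91% of all genes. The difference was -0.12 for Sox10, -0.0030 for Sox14 and -0.01 for Sry.

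Genes that SOX factors work with or regulate were counted from lists written for this comparison. TCF/LEF factors and beta-catenin partners share targets with SOX proteins, several of which bind beta-catenin. Over all genes tested 0.522% were higher and 0.126% lower in limma, and 3.91% and 2.97% with the block. Of the 14 partners tested 1 was higher and none lower in both fits. The median was 0.32. Differences above 0 were found for 13 of these 14 genes and 6 of the 8 Sox genes, beside 5242 of the 11874 genes tested. They were found for 0 of 7 intestinal identity genes, 0 of 7 Paneth and deep crypt secretory cell genes and 0 of 8 epithelial markers. Cdx2 and Vil1, the villin gene, were counted both as intestinal identity genes and as epithelial markers. Other lists were mixed, with 4 of 10 stomach and foregut genes and 1 of 4 other Sox genes. Endothelial markers had 2 of 5, neural and glial 2 of 6 and enteroendocrine 2 of 6. The TCF/LEF or partner gene that passed was Lef1, a Wnt effector of the HMG box superfamily. It read 8.18 and 8.39 in arrays labelled Gata6 null/Apc null against 3.82 and 4.17 in the Apc null arrays (difference 4.29, SE 0.25, limma adjusted p = 0.0137). Its Apc null values lay under the filter level.

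Intestinal identity genes, whose factor CDX2 stands against SOX2 along the gut, were lower in part by the blocked fit. None of 7 tested passed in limma, and 3 had an unadjusted p under 0.05, against 7.97% of all genes. With the block 3 were lower, against 2.97% of all genes, and the median was -0.23. Cdx2 read 7.29 and 8.11 in arrays labelled Gata6 null/Apc null against 9.13 and 9.41 in the Apc null arrays (difference -1.57, SE 0.34, adjusted p = 0.228, blocked 0.00545). Hnf4g, a nuclear receptor of enterocytes, differed by -1.92 and its relative Hnf4a by -0.39, both past the threshold with the block alone. Of the stomach and foregut genes none of 10 passed in either fit, and the median was -0.09. At an unadjusted p under 0.05 there was 1 of 10, beside 7.97% of all genes. The members with the smallest p were Gkn3, a gastrokine (-0.90, adjusted p = 0.351), and Krt5, a basal keratin (-0.46, adjusted p = 0.847). The SOX2 partners and targets of pluripotent cells had 4 of 10 tested, none past the threshold in either fit or at an unadjusted p under 0.05, and a median of 0.06. Lefty1 and Fgf4 had the smallest p, with 0.23 and -0.19.

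Paneth and deep crypt secretory cell genes, several of which need SOX9 in mice, had 2 of 7 lower in limma, against 0.126% of all genes. With the block 4 were lower, against 2.97% of all genes. None was higher in either fit, and the median was -0.78. Lyz2, a lysozyme, differed by -4.41 (SE 0.33, adjusted p = 0.0243) and Spink4, a protease inhibitor of secretory cells, by -4.30 (SE 0.40, adjusted p = 0.0314). The Lyz2 probe set is a shared-sequence one by its name, so other RNA may be read with it. Reg4 (-2.18) and Mmp7 (-0.78) passed with the block alone. Lyz1, the other lysozyme of the list, differed by -0.58 and passed in neither fit (limma adjusted p = 0.389, and 0.110 with the block). On the same arrays the 3 Sox9 probe sets differed by 0.10 to 0.19, and the brightest had its 95% interval between -0.31 and 0.52. Whether Sox9 bears on the values of these genes was not tested. Cartilage genes of SOX9, SOX5 and SOX6 were dim, with 2 of 12 tested and none past the threshold or at an unadjusted p under 0.05, and Col9a3 and Col2a1 differed by 0.29 and -0.11. Epithelial markers had none past the threshold in limma and 1, Cdx2, at an unadjusted p under 0.05 and lower with the block. Tubb3 (-0.28) and Uchl1 (0.29) had the smallest p of the neural and glial markers. Dcn (-0.06) was the fibroblast marker tested, Cd68 (-0.66) and Cd79a (0.06) led the immune markers, and Chga (-0.51) and Chgb (-0.54) the enteroendocrine ones, none of them past the threshold in either fit. At an unadjusted p under 0.05 there were 0 endothelial, 0 neural and glial, 0 fibroblast, 0 immune and 1 enteroendocrine marker, against 7.97% of all genes. The tuft cell marker tested, Avil, which encodes an actin-binding relative of villin, differed by 2.67 and was higher with the block alone (adjusted p = 0.00467).

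**Figure D4:**
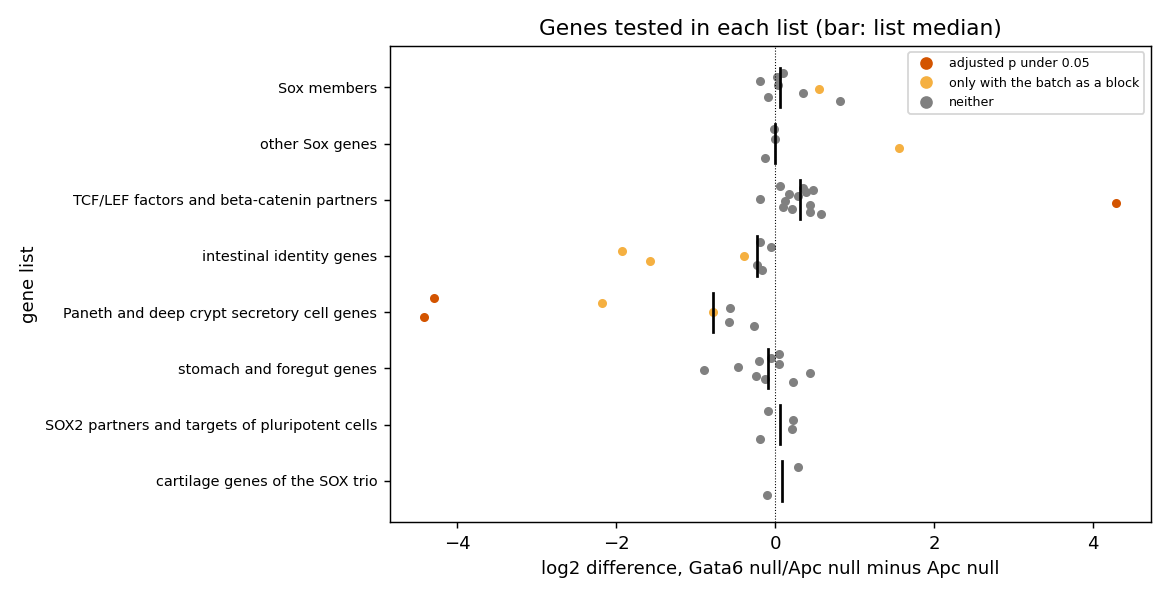
Log2 difference, Gata6 null/Apc null minus Apc null, of each gene tested in the Sox lists and in 6 lists of partner, target or identity genes. Dots are genes, coloured by whether they passed an adjusted p of 0.05 in limma, passed with the batch as a block alone, or neither, and bars are list medians. The Sox genes sit around 0.07 and the Paneth and deep crypt secretory cell genes around -0.78.

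The profiles most like that of Sox11, the Sox gene with the highest difference, were sought by Euclidean distance over the 4 arrays after centring each gene. The 3 nearest named genes were Cul7, a cullin of ubiquitin ligases, at a distance of 0.064, Pnpla3, a lipase, at 0.067 and Ptch1, the Hedgehog receptor, at 0.079. Ptch1 read 7.40 and 7.97 in arrays labelled Gata6 null/Apc null against 6.84 and 6.92 in the Apc null arrays. Since they were chosen for this likeness, these 3 had, like Sox11, nearly equal Apc null arrays and a higher batch B array in the other group. None of the 3 passed in limma or with the block. For Sox5, with the lowest difference, the nearest were Wnt2b, a Wnt ligand, Syngr2, a vesicle protein, and Abcb8, a mitochondrial transporter, at 0.0091, 0.0094 and 0.012. With 4 arrays, such distances describe these values only.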

How the data were processed

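RNA was measured on 4 arrays. Per the labels' protocols, RNA with an integrity number of at least 9 was used, 25 ng of it was amplified, and the array took 8 µg of fragmented, biotin-labelled cDNA. The authors deposited log2 values that RMA from the affy package had produced, as the submitters' processing notes name it; no version or genome build is given there. Of 45141 probe sets in the table, 104 controls were left aside. Gene names came from the platform annotation (28898 probe sets with 1 gene, 551 with several, 15588 with none), which was checked by Entrez identifier for 28689 against RefSeq GRCm38.p6, with 0 symbols changed. All 4 sample columns were used, and precision is limited by there being 4 arrays.

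The test was limma's (version 3.58.1, R 4.3.3; lmFit, eBayes with a trend), with Benjamini-Hochberg adjustment and a threshold of 0.05: over 11874 genes, 1 probe set each, and over all 45037 probe sets without a filter. The fits had 2 residual degrees of freedom, or 1 with the batch as a block. The batch differences of the groups correlated at 0.675 across genes, and the pairing comes from the batch label. The Sox members and gene lists were chosen with earlier results of these data known. Named genes were the 10 members, 10 other Sox genes, Gata6 and Apc, for each list at most 4 genes that passed in either fit, or else the 2 with the smallest p, and the 3 nearest profiles of the Sox genes with the highest and lowest difference. Epcam, Krt20, Vil1, Lyz1, Sox2ot and Col9a1 were named outside this rule. Promoters came from a RefSeq table and were searched with Python 3.11.15. Alternatives were the block, no trend, other filters, other probe set rules, array medians set equal and each array left out. The fit was also run on simulated data with shifts larger than any Sox difference here. That run does not show how well smaller differences are found.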

Additional observations from a re-analysis of the deposited data

Results flagged for a closer look

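The dimmest of the 5 Sox4 probe sets differed in opposite directions in the batches, by -0.24 in batch A and 0.59 in batch B. It read 7.29 and 7.49 in arrays labelled Gata6 null/Apc null (batch A, then batch B), and 7.53 and 6.90 in the Apc null arrays. It was singled out as the one of 27 Sox probe sets with opposite differences of at least 0.2 in size, a limit set after seeing the data. The difference between the batches was not tested, since no residual degrees of freedom are left for it.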

How the results depend on the processing

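Between 4 and 10 of the 10 Sox genes could be tested in a setting, all 10 only with no filter. None of those tested passed under any of the alternatives run except with the batch as a replicate block, where 1 did, Sox21. The block raised the count over all genes to 817, against 77, the count over all probe sets to 1458, against 58, and the count of Sox probe sets to 4. Setting the array medians equal gave 128 genes and 221 probe sets, and moderation without a trend gave 0 probe sets (limma, with 2468 at an unadjusted p under 0.05). Leaving out each array in turn gave 33 to 130 genes and 0 to 100 probe sets; the 0 came without either array labelled Gata6 null/Apc null, with 2348 and 2524 at an unadjusted p under 0.05. For Sox4 the difference ran from -0.086 to 0.15 over the arrays left out, for Sox6 from -0.094 to 0.15 and for Sox13 from -0.41 to 0.23. These 3 turned sign without batch A's Gata6 null/Apc null array, at -0.027, -0.094 and 0.17, and without batch B's Apc null array, at -0.086, -0.085 and 0.23; the cause was not tested. Sox21 kept its direction in all 11 alternatives, at 0.52 to 0.58, with adjusted p-values of 0.0103 to 0.592. Sox11 ran from 0.49, without batch B's Gata6 null/Apc null array, to 1.15, without batch A's, in the 8 values available for it. It was under the filter with the 60th percentile, the mean of its probe sets or no shared-sequence probe sets. Sox12, added after its values were seen, ran from 0.90 to 1.90 in 11 alternatives and passed with the block alone. Signal limits the dim genes: 5 of 6 Sox11 probe sets had means under the filter level.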

Other observations

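Col9a1, a collagen gene of cartilage that SOX9 is known to activate, was chosen after its values were seen. Its brighter probe set read 5.27 and 4.27 in arrays labelled Gata6 null/Apc null (batch A, then batch B), against 3.61 and 3.43 in the Apc null arrays. The mean over the 4 arrays lay under the filter level, so it was not among the cartilage genes tested. The difference over all probe sets was 1.25 (SE 0.34, limma adjusted p = 0.626, and 0.0182 with the batch as a block), with 1.67 from batch A and 0.84 from batch B. Its other probe set gave 0.26 (adjusted p = 1.00).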
